A study of Mus musculus with 40 samples.

Results

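Cathepsins are proteases of lysosomes and related compartments, and messenger RNA of 10 of them was followed through 8 groups of mouse livers: Ctsa, Ctsb, Ctsc, Ctsd, Ctse, Ctsh, Ctsk, Ctsl, Ctss and Ctsz. They were found by symbol among 24499 gene rows, and all 10 passed the low-count filter that left 14355 genes for testing. The 40 libraries came from snap-frozen livers of adult male C57BL/6 mice, 1 library for each numbered animal. Every mouse first ate either a diet marked BD or chow with 0.05% w/w DDC (3,5-diethoxycarbonyl-1,4-dihydrocollidine), a porphyrinogenic compound used to bring about chronic liver fibrosis. DDC 0D (n = 4) and Control 0D (n = 4, BD) were taken with no second treatment. After DDC, the second treatment was HFD with ethanol in DDC+EtOH (n = 6), HFD in DDC+HFD (n = 6) and BD in DDC+Cont (n = 5). After BD, it was HFD with ethanol in EtOH (n = 4), HFD in HFD (n = 6) and BD in Control 28D (n = 5). Ethanol reached at most 27 g per kg a day, given over at most 28 days through a tube placed surgically in the stomach. BD and HFD are not spelled out in the labels. These do not say whether the groups fed no ethanol had the tube, so ethanol and surgery cannot be told apart where they did not.

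Cathepsins are made as inactive precursors, carry mannose-6-phosphate tags that sorting receptors recognise, and become active in the acid of the lysosome. Ctsb, Ctsc, Ctsh, Ctsk, Ctsl, Ctss and Ctsz are cysteine proteases of the papain family, Ctsd and Ctse are aspartic proteases of the pepsin family, and Ctsa is a serine carboxypeptidase. Cystatins block the cysteine members. Ctsb, Ctsd, Ctsl and Ctsz are made by most cells, hepatocytes included, whereas Ctss is typical of macrophages and other antigen-presenting cells, and Ctsk is best known as the collagen-cutting enzyme of osteoclasts and is also made by activated fibroblasts. In liver disease research, Ctsb and Ctsd have been studied in hepatocyte death and in stellate cells.

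Promoter sequence was held in the RefSeq table (GRCm38.p6, 250 bases before to 50 after a start site) for 7 of the 10 cathepsins, in 8 promoters, with none for Ctsb, Ctse and Ctsh. The table's second Ctsa start and those of Ctsd, Ctss and Ctsk are printed. Ctsa and Ctsd were both called higher in EtOH against HFD, and Ctss and Ctsk had the largest called differences in DDC 0D against Control 0D. Ctsz and Ctsl were also called higher in EtOH against HFD but are not printed. Each printed promoter holds a motif named below, and only Ctsa and Ctsd held TCACGTGA, so the printed set does not stand for all 8 promoters. Capitals mark 3 motifs, searched on both strands and chosen after these promoters had been seen. They are the E-box CACGTG, with its longer form TCACGTGA that transcription factors of the TFEB and TFE3 family can bind, GAGGAAG, a core bound by PU.1 and other ETS factors, and GAAANNGAAA, a pair of interferon regulatory factor cores.
Ctsa, chr2:164833523-164833822, plus strand: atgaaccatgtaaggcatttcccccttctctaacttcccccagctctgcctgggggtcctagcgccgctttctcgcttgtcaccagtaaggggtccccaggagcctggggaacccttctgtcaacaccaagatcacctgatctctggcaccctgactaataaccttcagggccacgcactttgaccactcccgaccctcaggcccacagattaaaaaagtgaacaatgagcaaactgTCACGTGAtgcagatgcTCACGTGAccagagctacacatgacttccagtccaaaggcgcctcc
Ctsd, chr7:142387778-142388077, minus strand: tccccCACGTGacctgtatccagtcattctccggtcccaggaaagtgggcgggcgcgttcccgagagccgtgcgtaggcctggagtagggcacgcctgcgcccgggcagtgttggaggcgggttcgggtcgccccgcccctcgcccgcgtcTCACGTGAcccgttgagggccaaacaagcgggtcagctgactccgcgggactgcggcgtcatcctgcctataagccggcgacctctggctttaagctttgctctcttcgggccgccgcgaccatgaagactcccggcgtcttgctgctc
Ctss, chr3:95526536-95526835, plus strand: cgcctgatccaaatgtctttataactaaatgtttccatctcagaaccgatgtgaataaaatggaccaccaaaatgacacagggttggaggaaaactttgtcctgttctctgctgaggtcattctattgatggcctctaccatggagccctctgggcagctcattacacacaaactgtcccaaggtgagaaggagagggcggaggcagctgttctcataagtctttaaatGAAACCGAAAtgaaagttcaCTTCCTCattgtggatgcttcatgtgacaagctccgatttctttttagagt
Ctsk, chr3:95498960-95499259, plus strand: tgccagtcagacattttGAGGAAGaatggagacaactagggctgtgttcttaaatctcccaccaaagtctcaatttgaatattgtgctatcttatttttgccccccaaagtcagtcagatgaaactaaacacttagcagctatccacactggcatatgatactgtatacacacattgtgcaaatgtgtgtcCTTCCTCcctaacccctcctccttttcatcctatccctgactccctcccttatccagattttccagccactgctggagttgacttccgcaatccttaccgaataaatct
Counting from the start site, with -1 as the last base before it, the printed Ctsa promoter held TCACGTGA at -13 and again at 5, while the table's other Ctsa promoter (chr2:164832622-164832921) held none of the 3 motifs. The Ctsd promoter held it at -99 and a shorter CACGTG at -245. Ctsl, not printed, held CACGTG at -236. Of all 32851 promoters in the table, 7.15% held CACGTG and 0.974% held TCACGTGA, which contains it. GAGGAAG began at -1 in Ctss, at -233 and -59 in Ctsk and at -197 and -150 in Ctsc, and 13.6% of all promoters held it. GAAANNGAAA lay at -21 in Ctss, against 3.44% of all promoters. Ctsz, the member with the largest difference in EtOH against HFD, had none of these letters in its window. These matches describe letters, not binding.

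The libraries held 7197940 to 26398100 reads on genes (median 13653500). Levels are CPM, read counts scaled to each library's total with TMM factors, and each comparison used edgeR's quasi-likelihood test in 1 fit of all 40 libraries with Benjamini-Hochberg adjustment over 14355 genes. A difference was called at an adjusted p under 0.05, and the error beside a log2 fold change is its SE. Before the results, 7 libraries stood apart by messenger RNA of pancreas, with 1238 to 8262 CPM over a list of 10 pancreatic enzyme genes: HFD replicate 14, DDC+Cont replicate 24, DDC+HFD replicates 30, 33 and 36, and DDC+EtOH replicates 38 and 41. Fits without these libraries are given wherever a cathepsin call changed. A list of 10 hepatocyte genes summed to between 63722 and 126691 CPM in every library. The livers are mixtures, so fewer cells of a type and less messenger RNA per cell cannot be told apart.

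Per kilobase of exon, Ctsd stood highest and Ctse lowest, with medians over the 40 libraries of 189 and 0.135 CPM per kb. Ctsz (129 CPM per kb), Ctsl (108) and Ctsb (97.0) followed Ctsd. Ctss (53.6 CPM per kb), Ctsh (42.9), Ctsa (32.0) and Ctsc (29.9) made up a middle range, and Ctsk stood at 0.912 CPM per kb. Exon length here covers the exons of all annotated transcripts of a gene, 2351 bases for Ctsd and 6489 for Ctsl. Without division by length, Ctsl had a higher mean than Ctsd in every group, such as 605 and 368 CPM in Control 0D. The order per kb thus rests on the lengths used. The highest library exceeded the lowest 116-fold for Ctse, 15.8-fold for Ctsk and 8.21-fold for Ctss, but only 1.47-fold for Ctsh and 1.69-fold for Ctsa. As a share of the summed level per kb of all 10, Ctss made up 14.3% ± 1.54 in DDC 0D and 5.33% ± 1.53 in Control 0D (SD, n = 4 each). Ctsz made up 25.4% ± 3.12 in EtOH (n = 4) and 18.0% ± 0.635 in HFD (n = 6). The shares sum to a fixed total, rest on the same lengths and were not tested.

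**Figure D1:**
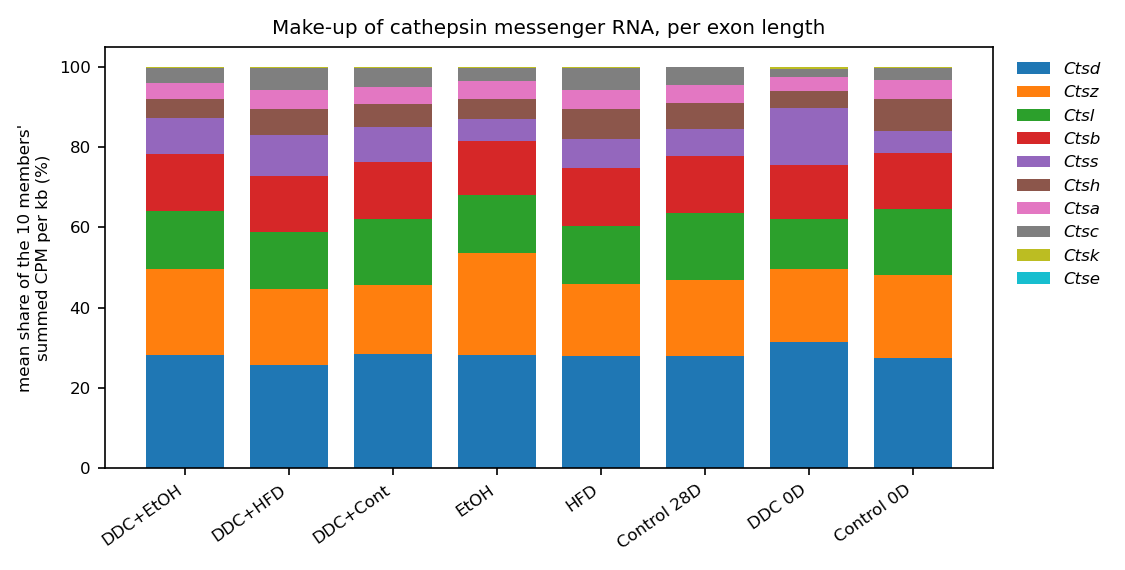
Stacked bars show the mean share, in percent, of each cathepsin in the summed CPM per kb of the 10, for each of the 8 groups (n = 4 to 6 libraries). The Ctss band is widest in DDC 0D (14.3%) and the Ctsz band is widest in EtOH (25.4%). Band widths rest on exon lengths taken over all annotated transcripts of a gene.

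DDC feeding (DDC 0D against Control 0D) had the most cathepsins called higher, 7, with 6 in DDC+EtOH against DDC+Cont. With single libraries left out these counts ran from 6 to 7 and from 5 to 7, so their order is not settled. Of the 10, 7 were higher and 0 lower, where 27.5% of all tested genes were higher and 24.5% lower, and the median log2 fold change of the 10 was 0.69 against 0.01 over all genes. The largest differences were those of Ctsk and Ctss. Every DDC 0D library stood above every Control 0D library for 8 cathepsins, Ctse and those called, where 26.0% of all genes did so.

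Ctss, which degrades the invariant chain for antigen presentation and stays active near neutral pH, lies on the plus strand of chromosome 3 (95526786 to 95556403, GENCODE vM21, GRCm38). The DDC 0D libraries had 184, 193, 178 and 236 CPM of Ctss, against 56.4, 28.7, 37.6 and 42.1 CPM in Control 0D. All 4 DDC 0D livers were thus well above the highest control, 4.81-fold on average in the fit (log2 fold change 2.27 ± 0.24, adjusted p = 9.9e-10). Ctsk is its neighbour on chromosome 3 (95499256 to 95509362). It had 4.46, 7.09, 8.14 and 7.36 CPM in DDC 0D and 0.567, 0.926, 1.02 and 1.65 CPM in Control 0D. The groups did not overlap, and at 6.37-fold Ctsk had the largest called difference of the 10 (log2 fold change 2.67 ± 0.28, adjusted p = 5.5e-10), though it was also the second least abundant.

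The macrophage and stromal marker lists moved with both genes. Of 16 recruited macrophage genes, 15 rose and none fell (median log2 fold change 3.64), and their summed level was 728 to 946 CPM in DDC 0D, against 133 to 208 CPM in Control 0D, with no marker of the list at 0 in every library of either group. Kupffer cell genes, those of the resident macrophages, numbered 4 higher and none lower of 9, with sums of 949 to 1327 CPM in DDC 0D and 684 to 850 CPM in Control 0D. Of 10 stellate cell and myofibroblast genes, 9 rose and none fell, with sums of 1267 to 1532 CPM in DDC 0D, against 312 to 348 CPM in Control 0D. All 10 bile duct genes rose, and 9 of 10 hepatocyte genes fell. The recruited macrophage list also holds general macrophage genes such as Adgre1, so these lists do not cleanly separate recruited from resident macrophages. The part of these cell types in the cathepsin differences was not tested.

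**Figure D2:**
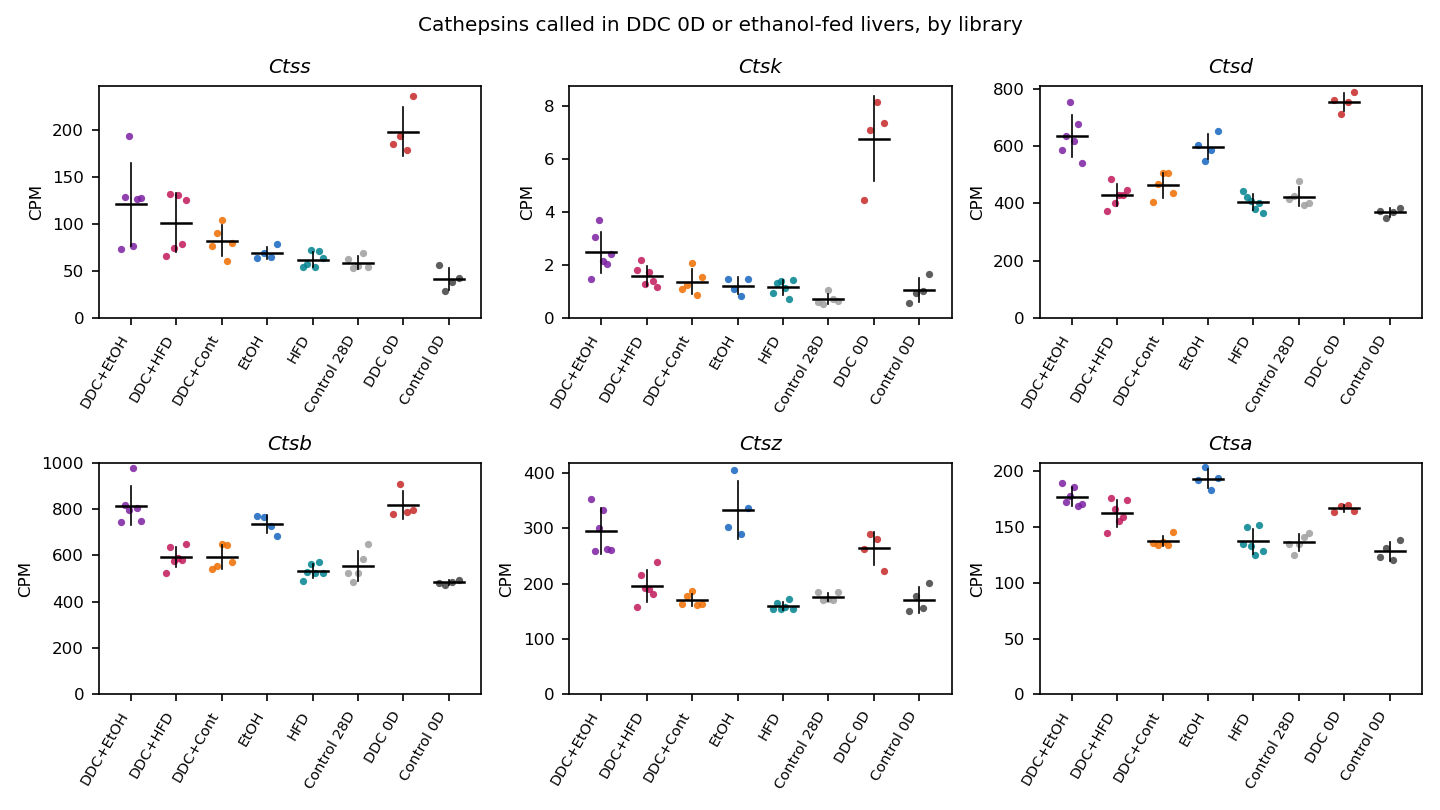
Each point is 1 library, in CPM, for Ctss, Ctsk, Ctsd, Ctsb, Ctsz and Ctsa in the 8 groups, and bars give the group mean and SD. Ctss and Ctsk have their highest group means in DDC 0D (libraries at 178 to 236 and 4.46 to 8.14 CPM), whereas Ctsz has its highest group mean in EtOH (289 to 405 CPM).

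Among the cathepsins of most cells, Ctsd moved furthest. Ctsd is the main aspartic protease of lysosomes (chromosome 7, 142375911 to 142388038, minus strand). Its level was 762, 711, 753 and 787 CPM in DDC 0D, against 372, 349, 369 and 383 CPM in Control 0D. The DDC 0D livers held 2.05-fold more, with little spread in either group (log2 fold change 1.03 ± 0.09, adjusted p = 1.1e-11). Ctsb, an endopeptidase that also trims dipeptides (chromosome 14, 63122462 to 63145923), had 777, 908, 789 and 797 CPM in DDC 0D and 482, 472, 486 and 496 CPM in Control 0D. It rose 1.69-fold (log2 fold change 0.76 ± 0.09, adjusted p = 8.2e-09). Ctsz, a carboxypeptidase also called cathepsin X (chromosome 2, 174427493 to 174439039), had 263, 289, 279.9 and 223 CPM in DDC 0D, against 149.7, 177, 155 and 200.4 CPM in Control 0D. The lowest DDC 0D library lay just above the highest control, and the log2 fold change was 0.63 ± 0.11 (adjusted p = 1.7e-05).

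Ctsa, known as protective protein because it keeps the sialidase Neu1 and the galactosidase Glb1 stable (chromosome 2, 164832873 to 164841032), differed least of those called. It had 164, 169, 170.1 and 165 CPM in DDC 0D and 123, 131, 120.4 and 138 CPM in Control 0D, a log2 fold change of 0.38 ± 0.07 (adjusted p = 2.1e-05). Ctsl, an endopeptidase (chromosome 13, 64359337 to 64370890), had 911, 714, 762 and 943 CPM in DDC 0D and 562, 661, 577 and 621 CPM in Control 0D. The 2 groups did not overlap, and Ctsl passed the test narrowly (log2 fold change 0.46 ± 0.19, adjusted p = 0.043). It failed the test when lane was a term (adjusted p = 0.058), when no low-count filter was used (0.096) and when Control 0D replicate 1, 3 or 4 or DDC 0D replicate 5 or 8 was left out (0.055 to 0.11). Ctsc, an aminodipeptidase that activates the serine proteases of neutrophils, did not pass, with 118 ± 14.9 CPM in DDC 0D and 105 ± 9.68 CPM in Control 0D (SD, n = 4 each; log2 fold change 0.17 ± 0.19, adjusted p = 0.47). Ctsh, an aminopeptidase, had 194 ± 14.6 CPM in DDC 0D and 203 ± 15.5 CPM in Control 0D (log2 fold change -0.07 ± 0.09, adjusted p = 0.58).

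Once DDC feeding had been followed by the BD diet, the difference from controls was no longer called for any cathepsin. In DDC+Cont against Control 28D, edgeR called 0 of 10, DESeq2 also called 0, and 2 had an unadjusted p under 0.05, where 1.52% of all genes were called in either direction. The 2 were again Ctsk and Ctss. Ctsk had 1.11, 1.25, 2.06, 0.874 and 1.55 CPM in DDC+Cont and 0.615, 0.514, 1.04, 0.729 and 0.646 CPM in Control 28D (log2 fold change 0.91 ± 0.30, adjusted p = 0.12). Only the lowest DDC+Cont library and the highest Control 28D library crossed. Ctss had 76.6, 89.9, 104, 60.4 and 79.6 CPM in DDC+Cont and 62.3, 53.0, 55.1, 69.3 and 54.5 CPM in Control 28D (log2 fold change 0.48 ± 0.21, adjusted p = 0.33).

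The change in the DDC difference between the stages was tested directly, as an interaction of the same fit. It was called for 6 cathepsins, all toward a smaller difference at the later stage, where 17.6% of all genes were called lower and 14.5% higher. In log2 units it was -1.78 ± 0.31 for Ctss, -1.76 ± 0.41 for Ctsk, -0.90 ± 0.12 for Ctsd, -0.68 ± 0.15 for Ctsz, -0.66 ± 0.12 for Ctsb and -0.37 ± 0.09 for Ctsa, with adjusted p between 6.5e-07 (Ctsd) and 0.0026 (Ctsa). The other 4 were not called, with adjusted p of 0.27 (Ctsl), 0.43 (Ctse), 0.89 (Ctsc) and 0.99 (Ctsh). The interaction also takes in the difference between the control groups. Means in Control 28D and Control 0D were 58.8 and 41.2 CPM for Ctss, 423 and 368 for Ctsd and 554 and 484 for Ctsb. They were 176 and 171 CPM for Ctsz, 136 and 128 for Ctsa and, the other way, 0.709 and 1.04 for Ctsk. None of these 6 was called between the controls. Of the recruited macrophage list, 14 of 16 genes had a called interaction of the same sign, and 7 of 10 in the stellate list.

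Set directly against DDC 0D, DDC+Cont livers were lower for the same 6 and higher for Ctsc, where 23.2% of all genes were lower and 20.2% higher. Ctsk averaged 1.37 ± 0.460 CPM in DDC+Cont (n = 5) and 6.76 ± 1.60 CPM in DDC 0D (n = 4), a fit difference of -2.31 ± 0.26 in log2 units (adjusted p = 4.8e-09). Ctsd averaged 463 ± 43.7 CPM in DDC+Cont and 753 ± 31.7 CPM in DDC 0D (log2 fold change -0.70 ± 0.09, adjusted p = 3.0e-08). DDC 0D is a part of both this comparison and the one above, so the 2 are not independent. Ctsc ran the other way, with 172, 183, 246, 173 and 186 CPM in DDC+Cont and 101, 133, 111 and 127 CPM in DDC 0D (log2 fold change 0.70 ± 0.18, adjusted p = 0.0017). Every DDC+Cont library lay above every DDC 0D library. Livers fed only BD differed in the same way. Control 28D had 152, 135, 169, 204 and 159 CPM of Ctsc, against 113, 91.0, 106 and 109 CPM in Control 0D (log2 fold change 0.64 ± 0.18, adjusted p = 0.044), the 1 cathepsin called there, where 1.62% of all genes were higher and 0.836% lower. That call was lost with lane as a term (adjusted p = 0.060), without a low-count filter (0.078) and without any of the 4 Control 0D libraries or without Control 28D replicate 9, 11, 12 or 13 (0.051 to 0.17).

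**Figure D3:**
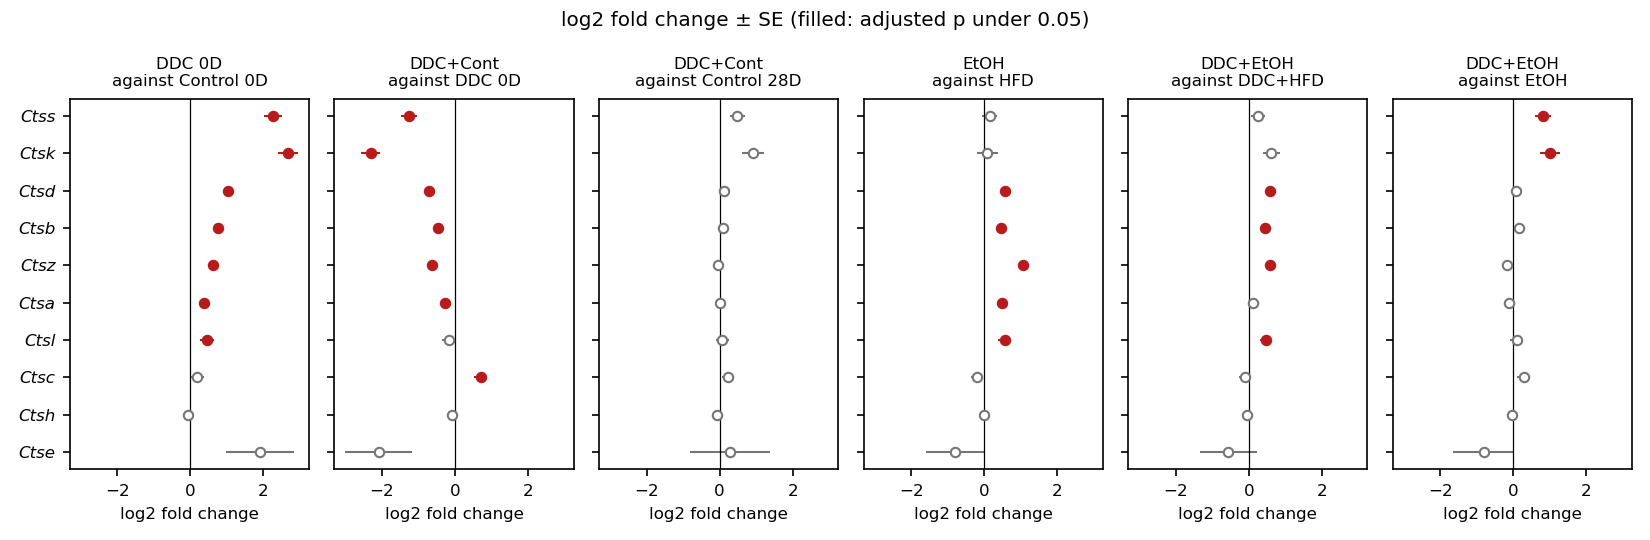
Points give the log2 fold change and bars the SE of each of the 10 cathepsins in 6 comparisons, with filled points where the adjusted p was under 0.05. Ctss and Ctsk are called in DDC 0D against Control 0D and in DDC+EtOH against EtOH. Ctsd, Ctsb, Ctsz and Ctsl are called in DDC 0D against Control 0D too, and in EtOH against HFD and DDC+EtOH against DDC+HFD.

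In ethanol-fed livers Ctsz, Ctsd, Ctsl, Ctsa and Ctsb rose. EtOH against HFD, which differ in ethanol, had 5 of 10 higher and 0 lower, where 7.84% of all tested genes were higher and 5.61% lower, and the median log2 fold change of the 10 was 0.31. Ctsz, the carboxypeptidase, differed most. It had 302, 405, 289 and 337 CPM in EtOH, against 154, 165, 154, 159, 172 and 154 CPM in HFD. The lowest EtOH library held 289 CPM and the highest HFD library 172 CPM, and the fold was 2.09 (log2 fold change 1.06 ± 0.10, adjusted p = 1.0e-09). Ctsd had 604, 548, 586 and 653 CPM in EtOH and 367 to 443 CPM in HFD (median 405 CPM), also without overlap (log2 fold change 0.57 ± 0.08, adjusted p = 5.2e-06).

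Ctsa stood at 193, 204, 183 and 194 CPM in EtOH and at 125 to 152 CPM in HFD (median 134 CPM), its highest level of any group (log2 fold change 0.49 ± 0.06, adjusted p = 5.3e-07). Ctsb had 771, 764, 726 and 684 CPM in EtOH and 488 to 573 CPM in HFD (median 526 CPM; log2 fold change 0.47 ± 0.08, adjusted p = 9.4e-05). Ctsl had 1044, 799, 749.9 and 829 CPM in EtOH and 545 to 619 CPM in HFD (median 574 CPM; log2 fold change 0.56 ± 0.17, adjusted p = 0.025). HFD had the lowest Ctsl mean of the 8 groups, 579 ± 28.0 CPM, against 703 ± 64.0 CPM in Control 28D (SD, n = 6 and 5). Against Control 28D, Ctsl was called neither in HFD nor in EtOH. The libraries of EtOH and HFD did not overlap for the 5 cathepsins called, all higher in EtOH, where 8.99% of all genes did so, yet the Ctsl call was lost without EtOH replicate 20 (adjusted p = 0.11) or 23 (0.056). Ctss and Ctsk were not called here: Ctss averaged 68.8 ± 6.57 CPM in EtOH and 61.9 ± 8.31 CPM in HFD (log2 fold change 0.15 ± 0.21, adjusted p = 0.70), and Ctsk averaged 1.21 ± 0.322 CPM in EtOH and 1.15 ± 0.276 CPM in HFD (log2 fold change 0.08 ± 0.29, adjusted p = 0.89; SD, n = 4 and 6).

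Summed levels of 3 cell type lists did not overlap between these 2 groups, although few of their genes were called. Stellate cell genes summed to 424 to 513 CPM in EtOH and 297 to 412 CPM in HFD, with 1 of 10 higher and none lower. Bile duct genes summed to 34.5 to 45.1 CPM in EtOH and 47.9 to 74.99 CPM in HFD, with 2 of 10 lower and none higher. Red blood cell genes summed to 75.6 to 92.6 CPM in EtOH and 112 to 238 CPM in HFD, with 3 of 5 tested lower and none higher. The recruited macrophage sum overlapped, at 318 to 379 CPM in EtOH and 242 to 343 CPM in HFD, with 1 of 16 genes higher and none lower. Of 9 tested Kupffer cell genes 1 was higher and 1 lower, and of 10 hepatocyte genes 2 were lower. The part of these lists in the cathepsin differences was not tested. Against Control 28D, which lacks both HFD and ethanol, EtOH livers were higher for 4 cathepsins, where 9.99% of all genes were higher and 8.20% lower: Ctsz (log2 fold change 0.92 ± 0.11), Ctsa (0.50 ± 0.07), Ctsd (0.50 ± 0.09) and Ctsb (0.41 ± 0.09). HFD against Control 28D had none called by edgeR or by DESeq2, with 2 at an unadjusted p under 0.05 (Ctse and Ctsk), where 0.376% of all genes were called. For Ctse, HFD replicate 14 had 9.99 CPM. The other HFD libraries had 0.0861 to 0.363 CPM, against 0.103 to 0.456 CPM in Control 28D.

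After earlier DDC feeding, 4 cathepsins rose in ethanol-fed livers. In DDC+EtOH against DDC+HFD, Ctsd, Ctsb, Ctsz and Ctsl were higher and none was lower, where 8.53% of all tested genes were higher and 8.02% lower. Ctsz had 353, 259, 301, 332, 261 and 259.7 CPM in DDC+EtOH, against 158, 215, 191, 189.6, 181 and 239 CPM in DDC+HFD. The groups did not overlap, and Ctsz rose 1.51-fold (log2 fold change 0.59 ± 0.09, adjusted p = 1.8e-05). The 2 highest DDC+EtOH libraries, replicates 38 and 41, and the lowest DDC+HFD library, replicate 30, were among those with pancreas messenger RNA. Without the 7 pancreas-bearing libraries the difference was 0.33 ± 0.11 and not called (adjusted p = 0.055).

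Ctsd had 587, 634, 752, 619, 675 and 539 CPM in DDC+EtOH and 372, 486, 402, 430.1, 429 and 445 CPM in DDC+HFD. Again no libraries overlapped (log2 fold change 0.57 ± 0.08, adjusted p = 9.3e-07), as was so for 3 cathepsins and 2.17% of all genes. Ctsb had 744, 819, 794, 976, 807 and 750.3 CPM in DDC+EtOH and 526, 637, 576, 588, 582 and 650.3 CPM in DDC+HFD (log2 fold change 0.46 ± 0.07, adjusted p = 2.4e-05). Ctsl spread widely, with 878, 1387, 1149.9, 474, 595 and 986 CPM in DDC+EtOH and 605, 699, 704, 643, 542 and 764 CPM in DDC+HFD. The 2 lowest DDC+EtOH libraries lay within the range of DDC+HFD, and the call (log2 fold change 0.47 ± 0.16, adjusted p = 0.036) was lost with lane as a term (0.062), with only the 2 groups in the fit (0.23) and without DDC+HFD replicate 30, 35 or 36 or DDC+EtOH replicate 39, 40 or 43 (0.057 to 0.17). Ctsa averaged 177 ± 8.56 CPM in DDC+EtOH and 163 ± 12.1 CPM in DDC+HFD (SD, n = 6 each; log2 fold change 0.13 ± 0.06, adjusted p = 0.13). Ctsk averaged 2.48 ± 0.784 CPM in DDC+EtOH and 1.59 ± 0.381 CPM in DDC+HFD (log2 fold change 0.61 ± 0.23, adjusted p = 0.066). It was called with lane as a term (0.019) and without DDC+HFD replicate 32 (0.039) or DDC+EtOH replicate 38 (0.028).

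Whether ethanol acted differently after DDC was tested as an interaction. edgeR called 0 cathepsins, with 2 at an unadjusted p under 0.05, and it called 0 of all genes, with 739 at an unadjusted p under 0.05. These 2 were Ctsa (-0.37 ± 0.09 in log2 units, adjusted p = 0.45) and Ctsz (-0.47 ± 0.14, adjusted p = 0.51), both toward a smaller ethanol difference after DDC. DESeq2 called 3 of all genes, and Ctsa was among them (log2 -0.36, adjusted p = 0.025). The interaction of DDC with HFD was likewise called for 0 cathepsins and 0 genes (0.00% for both interactions), with 2 cathepsins (Ctsa and Ctsz) and 1087 genes at an unadjusted p under 0.05 and 0 cathepsins and 1 gene called by DESeq2.

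DDC+EtOH and EtOH share ethanol and differ in the earlier DDC. Ctss and Ctsk were the 2 cathepsins called between them, both higher after DDC, where 4.12% of all genes were higher and 2.57% lower. Ctss had 72.9, 128, 193, 76.4, 126 and 127 CPM in DDC+EtOH and 63.6, 68.6, 64.8 and 78.1 CPM in EtOH (log2 fold change 0.81 ± 0.22, adjusted p = 0.018). Replicates 38 and 41 of DDC+EtOH lay within the range of EtOH. Ctsk had 1.48, 3.06, 3.68, 2.17, 2.05 and 2.43 CPM in DDC+EtOH and 1.48, 1.08, 0.822 and 1.47 CPM in EtOH (log2 fold change 1.02 ± 0.27, adjusted p = 0.017). The call of Ctss was lost without EtOH replicate 20 or 22 or DDC+EtOH replicate 40 (0.056 to 0.068), that of Ctsk without EtOH replicate 21 or 22 or DDC+EtOH replicate 40 (0.054 to 0.083), and both with only the 2 groups in the fit (Ctss 0.12, Ctsk 0.087). The recruited macrophage sum was 321 to 811 CPM in DDC+EtOH and 318 to 379 CPM in EtOH, with 9 of 16 genes higher. DDC+EtOH replicate 40, the highest for Ctss and Ctsk, also had the highest recruited macrophage sum of its group, 811 CPM. The stellate sum was 499 to 873 CPM in DDC+EtOH and 424 to 513 CPM in EtOH, with 5 of 10 genes higher, and the part of either list was not tested.

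In DDC+HFD against HFD, 3 cathepsins were higher, where 7.96% of all genes were higher and 5.49% lower. Ctss had 65.6, 132, 74.7, 130.4, 78.0 and 126 CPM in DDC+HFD, against 53.7 to 72.6 CPM in HFD (median 60.2 CPM; log2 fold change 0.71 ± 0.19, adjusted p = 0.011). DDC+HFD replicates 32, 35 and 37 stood near 130 CPM and replicates 30, 33 and 36 below 80 CPM. Replicates 30, 33 and 36 are also the ones with pancreas messenger RNA, and they had 46.5, 55.6 and 40.4 CPM of the macrophage marker Adgre1, against 99.3, 110.1 and 67.7 CPM in replicates 32, 35 and 37. The whole recruited macrophage list, which includes Adgre1, did not split them in this way. It summed to 252, 428 and 281 CPM in replicates 30, 33 and 36 and to 549, 547 and 387 CPM in replicates 32, 35 and 37. The Kupffer cell list did split them. Its sums were 869, 1053 and 829 CPM in replicates 30, 33 and 36 and 1242, 1300 and 1259 CPM in replicates 32, 35 and 37. Between the groups the Kupffer sums overlapped, at 829 to 1300 CPM in DDC+HFD and 893 to 1220 CPM in HFD. The part of this list in the Ctss difference was not tested. Marker lists moved with Ctss in this comparison. Of 16 recruited macrophage genes 11 rose, with sums of 252 to 549 CPM in DDC+HFD and 242 to 343 CPM in HFD, and of 10 stellate genes 6 rose, with sums of 468 to 595 CPM in DDC+HFD and 297 to 412 CPM in HFD. Neutrophil genes rose for 9 of 10 tested, with sums of 19.2 to 910 CPM in DDC+HFD and 15.7 to 52.2 CPM in HFD, and 7 of 10 bile duct genes rose. None of these 4 lists had a gene called lower, and their part in the Ctss difference was not tested. Ctsa had 144.5 to 176 CPM in DDC+HFD and 125 to 152 CPM in HFD (log2 fold change 0.24 ± 0.06, adjusted p = 0.0041). Ctsz had 158 to 239 CPM in DDC+HFD and 154 to 172 CPM in HFD (0.29 ± 0.09, adjusted p = 0.030), a call lost with lane as a term (0.067), with no low-count filter (0.056) and without HFD replicate 14, 15, 16, 17 or 19 or DDC+HFD replicate 32 or 37 (0.0502 to 0.079).

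DDC+HFD against DDC+Cont had 1 cathepsin called, Ctsa (log2 fold change 0.24 ± 0.06, adjusted p = 0.018), where 1.87% of all genes were higher and 1.53% lower. Its call was lost without DDC+Cont replicate 25 (0.064), with no low-count filter (0.052) and with only the 2 groups in the fit (0.15). Without the pancreas-bearing libraries Ctss was called as well (0.63 ± 0.17, adjusted p = 0.038; 0.30 ± 0.20 and 0.45 with them). DDC+EtOH against DDC+Cont had 6 higher, where 12.4% of all genes were higher and 11.2% lower: Ctsk (0.84 ± 0.25), Ctsz (0.79 ± 0.10), Ctss (0.55 ± 0.20), Ctsb (0.46 ± 0.08), Ctsd (0.45 ± 0.08) and Ctsa (0.37 ± 0.06). Ctss was the weakest (adjusted p = 0.041), lost with no low-count filter (0.065), with only the 2 groups in the fit (0.14), without DDC+Cont replicate 24, 25, 28 or 29 and without DDC+EtOH replicate 39, 40, 42 or 43 (0.052 to 0.18). Ctsk was lost with only the 2 groups in the fit (0.058), and Ctsl (0.30 ± 0.16, adjusted p = 0.20) was called without DDC+EtOH replicate 41 (0.43 ± 0.15, adjusted p = 0.030). Between the same groups 7 of 16 recruited macrophage genes were higher and none lower, with sums of 321 to 811 CPM in DDC+EtOH and 257 to 381 CPM in DDC+Cont. Of 10 stellate genes 6 were higher and none lower, with sums of 499 to 873 CPM in DDC+EtOH and 365 to 599 CPM in DDC+Cont, and the part of either list was not tested.

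**Figure D4:**
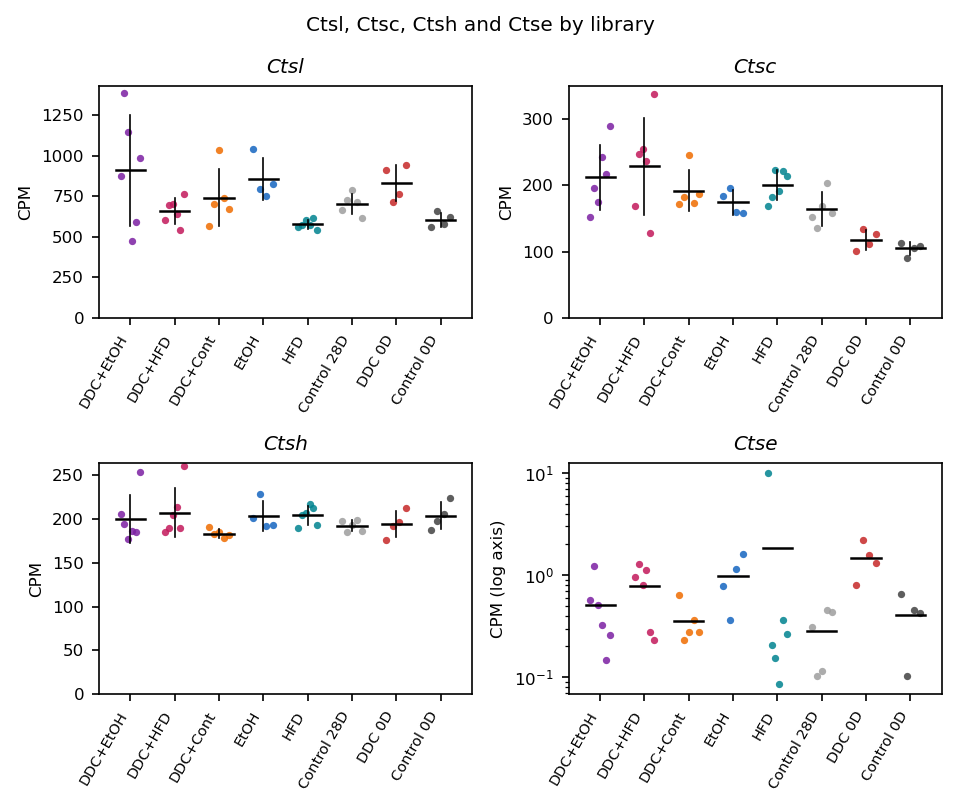
Each point is 1 library, in CPM, for Ctsl, Ctsc, Ctsh and Ctse in the 8 groups, with group means and, except for Ctse on its log axis, SD bars. Ctsh stays between 176 and 259.7 CPM in every library, and 1 HFD library holds 9.99 CPM of Ctse while no other library exceeds 2.19 CPM.

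Ctsh was called in none of the 12 comparisons or 3 interactions, and its group means lay between 183 ± 4.71 CPM in DDC+Cont (n = 5) and 207 ± 28.0 CPM in DDC+HFD (n = 6). In DDC+HFD against DDC+Cont it had an unadjusted p of 0.035 (log2 fold change 0.18 ± 0.08, adjusted p = 0.23). Ctsc, called only in the 2 comparisons above, varied most in DDC+HFD, where its libraries had 169, 247, 254, 237, 127 and 337 CPM. The neutrophil sums of these libraries, in the same order, were 19.2, 637, 910, 335, 35.2 and 208 CPM, so the 2 lowest for Ctsc were also the 2 lowest for neutrophil genes. The highest for Ctsc was the third lowest for neutrophil genes, and their part was not tested. Group order by mean was DDC+HFD, DDC+EtOH, HFD, DDC+Cont, EtOH, Control 28D, DDC 0D and Control 0D, and of neighbours in that order only Control 28D and DDC 0D did not overlap.

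Ctse, an aspartic protease of stomach lining, spleen and lymphoid cells, was scarce. Apart from HFD replicate 14 it lay between 0.0861 and 2.19 CPM. DDC 0D had 0.7999, 2.19, 1.56 and 1.31 CPM, against 0.648, 0.103, 0.454 and 0.426 CPM in Control 0D, which did not overlap but did not pass the test (log2 fold change 1.91 ± 0.93, adjusted p = 0.086). It was called with only these 2 groups in the fit (adjusted p = 0.0020) and without the pancreas-bearing libraries (0.0027). HFD replicate 14 had 9.99 CPM and the other HFD libraries 0.205, 0.153, 0.0861, 0.363 and 0.267 CPM. That library also had 6406 CPM of the pancreas list, 10.51 CPM of the B cell gene Ms4a1, 20.5 CPM of the stomach gene Tff2 and the highest B and plasma cell sum of its group, 78.8 CPM. The 6 other pancreas-bearing libraries held 0.276 to 0.968 CPM of Ctse. A list of 10 stomach genes summed to 21.8 CPM in HFD replicate 14. It summed to 67.7 CPM in DDC+HFD replicate 35, which held 1.13 CPM of Ctse. With HFD replicate 14, EtOH against HFD gave -0.79 ± 0.80 (adjusted p = 0.57) and DDC+HFD against HFD gave -1.04 ± 0.73 (0.36). Without it, they gave 2.03 ± 0.55 (0.011) and 1.78 ± 0.52 (0.021), so the sign and the call rest on that library. In DDC+Cont against DDC 0D, Ctse was not called (-2.09 ± 0.91, adjusted p = 0.062) but was by DESeq2 (0.040), with only the 2 groups (0.00058) and without the pancreas-bearing libraries (0.0010). In EtOH against Control 28D the value was 1.73 ± 0.99 (0.24), and 1.73 ± 0.56 (0.027) without those libraries.

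The genes around the cathepsins were counted from lists of the pathway. In DDC 0D against Control 0D, where 27.5% of all genes were higher and 24.5% lower, 22 of 37 other lysosomal hydrolases rose and 2 fell (median log2 fold change 0.33), among them Lyz2, the lysozyme of macrophages (3.00 ± 0.34), while the glycogen-cutting Gaa was lower (-0.60 ± 0.16). Of 18 subunits and partners of the proton pump that acidifies the lysosome, 9 rose and none fell, with Atp6v0d2, the subunit of osteoclasts and macrophages, at 3.15 ± 0.52. Of 17 maturation and sorting genes, 10 rose and 5 fell, including the sorting receptor Sorl1 (2.35 ± 0.29) and the membrane protein Lamp2 (-0.52 ± 0.08). Of 11 tested genes out of 25 listed as inhibitors, 4 rose and 3 fell. That list also holds cystatin relatives and protease inhibitors of other families, such as Fetub and Serping1. Whether each of them blocks a cathepsin was not tested. Cstb, the cytosolic cystatin that blocks Ctsb, Ctsh, Ctsl and Ctss, stood at 106 ± 6.71 CPM in DDC 0D and 22.1 ± 1.37 CPM in Control 0D (SD, n = 4 each; log2 fold change 2.26 ± 0.14), and Fetub, a liver-secreted cystatin relative, was lower (-0.73 ± 0.13). Of 12 genes of the TFEB family and lysosome regulators, 6 rose and none fell, among them the GTPase Rragd (4.35 ± 0.37). Of the 5 tested of 9 other cathepsins, 1 rose and 1 fell, Ctsf (-0.53 ± 0.12).

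In EtOH against HFD, where 7.84% of all genes were higher and 5.61% lower, 14 of 37 hydrolases rose and none fell (median log2 fold change 0.25). Hexa, a lysosomal glycosidase, had 125 ± 16.8 CPM in EtOH (n = 4) and 62.3 ± 5.65 CPM in HFD (n = 6), a log2 fold change of 1.00 ± 0.08. Of the 18 proton pump genes 5 rose and 1 fell, and of the 17 sorting genes 9 rose and 1 fell, with Neu1, a partner of Ctsa, at 0.69 ± 0.11 and the sorting receptor Sort1 at 0.68 ± 0.14. Of the 12 TFEB family and regulator genes 5 rose and none fell, including the autophagy receptor Sqstm1 (0.74 ± 0.16). Cstb was the 1 gene of the 11 tested in the inhibitor list that rose (0.56 ± 0.13), and none fell, while 1 of 5 other cathepsins rose and none fell. Summed levels did not overlap between the groups for the hydrolases (2119 to 2314 CPM in EtOH and 1772 to 1917 CPM in HFD), the proton pump and the regulators, but overlapped for the sorting genes, the inhibitors and the other cathepsins. Sqstm1 made up most of the regulator sum. It averaged 707 CPM in EtOH and 422 CPM in HFD, where the median sums were 1102 and 688 CPM.

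In DDC+EtOH against DDC+HFD, where 8.53% of all genes were higher and 8.02% lower, 12 of 37 hydrolases, 7 of 18 pump genes, 7 of 17 sorting genes and 6 of 12 regulators rose, and 1 sorting gene, Lrp1, fell (-0.46 ± 0.15). Igf2r, the large mannose-6-phosphate receptor that carries cathepsins to the lysosome, had 183 ± 17.0 CPM in DDC+EtOH and 125 ± 9.55 CPM in DDC+HFD (SD, n = 6 each; log2 fold change 0.56 ± 0.06). Cstb rose as well (0.84 ± 0.11), 1 of 2 genes higher and 3 lower of the 11 tested in the inhibitor list. Here 7 of 16 recruited macrophage genes were higher and 2 lower, with sums of 321 to 811 CPM in DDC+EtOH and 252 to 549 CPM in DDC+HFD, and 4 of 10 stellate genes were higher. Neutrophil genes were lower for 9 of 10 tested, with sums of 14.0 to 57.6 CPM in DDC+EtOH and 19.2 to 910 CPM in DDC+HFD.

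**Figure D5:**
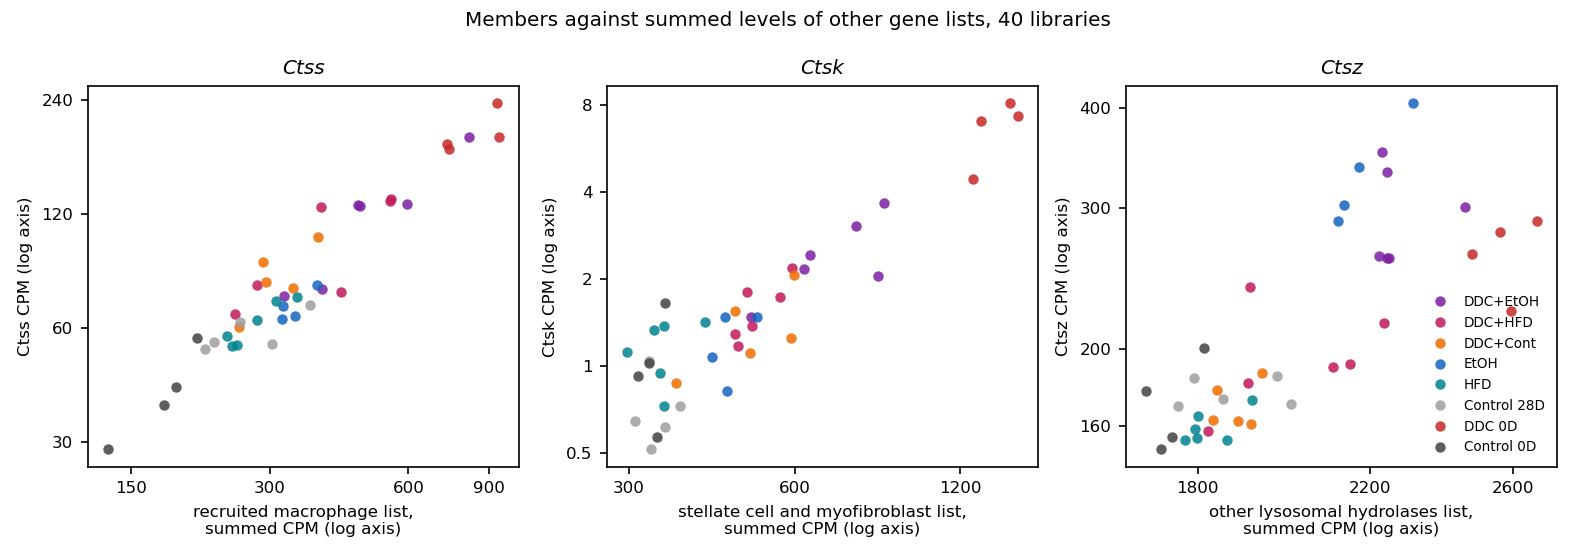
Each point is 1 of the 40 libraries, on log axes in CPM: Ctss against the summed recruited macrophage genes, Ctsk against the summed stellate cell genes and Ctsz against 37 other lysosomal hydrolases. In the Ctss and Ctsk panels the DDC 0D libraries lie at the upper end of both axes. In the Ctss panel DDC+EtOH replicate 40 lies among them, with 193 CPM of Ctss at a sum of 811 CPM. In the Ctsz panel the EtOH libraries hold 289 to 405 CPM of Ctsz at a hydrolase sum of 2119 to 2314 CPM, against 223 to 289 CPM at 2479 to 2677 CPM in DDC 0D.

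Likeness over the 40 libraries, as Pearson's r of log2(CPM + 1), is given as a description with no test, since all pairs share libraries and group differences. Ctss was most like Tyrobp (r = 0.96), a signalling adaptor of myeloid cells, then Ms4a6d and the Fc receptor Fcgr3. Ctsk was most like Fbn1 (r = 0.94), a microfibril protein, then Pam and Arhgap22. Ctsa and Ctsz were each most like Hexa (r = 0.93 for both), and Ctsb was most like Psap (r = 0.92), the precursor of saposins. Ctsd was most like Loxl2, Mmp12 and Maged2 (r = 0.93 each). Ctsc was most like 3 genes of secreted liver proteins, Kng2 (r = 0.89), Fgl1 (0.89) and Orm1 (0.88). Ctse, Ctsh and Ctsl had no gene at r of 0.8 or more. Among the cathepsins, the 4 closest of the 45 pairs were Ctsa with Ctsz (r = 0.91), Ctsb with Ctsd (0.88), Ctsb with Ctsz (0.84) and Ctsk with Ctss (0.82).

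Some cathepsin exons overlap other genes, and whether the counting used strand is not stated, so reads there cannot be assigned with certainty. Ctsa shares 495 of its 4715 exon bases with Pltp and 324 with Neurl2, and Ctsb shares 774 of 6051 with Fdft1, all on the opposite strand. Ctsa was called higher in 6 comparisons. Pltp, a phospholipid transfer protein, was called lower in 4 of these, at -0.89 ± 0.18 in DDC 0D against Control 0D, -0.90 ± 0.17 in EtOH against HFD, -0.91 ± 0.18 in EtOH against Control 28D and -0.77 ± 0.16 in DDC+EtOH against DDC+Cont. It was not called in the other 2, at -0.01 ± 0.15 in DDC+HFD against DDC+Cont (adjusted p = 0.98) and -0.20 ± 0.15 in DDC+HFD against HFD (0.38). Fdft1, the squalene synthase, was 0.01 ± 0.23 in DDC 0D against Control 0D and -0.79 ± 0.21 in EtOH against HFD. Ctsz shares 10 bases with Nelfcd, while Ctsd and Ctsl overlap predicted genes of the same strand.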

How the data were processed

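Per the labels' protocols, TruSeq mRNA libraries were made from total liver RNA. The deposited values were the authors' raw read counts per gene symbol, 1 file per library. Per the submitters' processing notes, the genome build was mm10, and GSNAP and DESeq2 1.12.3 are listed with no role. Not given in the sources used here are the program and annotation of the counting and whether it used strand. Of the reads tallied, 41.0% to 51.8% were on genes and the rest, in 5 closing tallies, were left out of library sizes and tests. Groups came from the labels, and p-values set a group difference against the spread between numbered animals, estimated over all groups together.

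All 40 libraries entered 1 fit with 8 group coefficients in edgeR 4.0.16 (R 4.3.3), with TMM factors, filterByExpr by group, robust dispersion and the two-sided quasi-likelihood F test. P-values were adjusted by Benjamini-Hochberg over 14355 genes, and interactions were contrasts of that fit. The SE is the size of the log2 fold change over the root of F. CPM used the totals of tested genes with TMM factors. Exon lengths and positions came from GENCODE vM21, in which 23636 of 24499 symbols matched 1 gene. A length counted each base in an exon of any transcript of the gene once. The test was checked on simulated counts.

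The cathepsins and all gene lists were chosen with earlier results of these data known. All 10 cathepsins are named. The values of 1 list gene are not reported here. List genes named are up to 2 largest and 2 smallest called log2 fold changes of a list in DDC 0D against Control 0D, and up to 2 elsewhere, if the higher group averaged 5 CPM or more. For likeness, the 3 nearest genes at r of at least 0.8 are named. Adgre1, Ms4a1, Tff2 and the overlapping genes were named after their values were seen. Alternatives were RLE size factors, no low-count filter, a stricter filter (1 CPM in 4 libraries and a mean count of 10), sequencing lane as a term, only the groups compared, no libraries over 1000 CPM of the pancreas list, DESeq2 1.42.0 and each library left out. Lanes, from the deposited names, hold 0 to 2 libraries of a group, too few for values within a lane.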

Additional observations from a re-analysis of the deposited data

Results flagged for a closer look

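In 7 of 80 groups of a cathepsin's libraries, the highest library lay apart from the rest of its group, by its gap to the nearest library over the whole range, where chance gives about 1 in 20. Ctse had 9.99 CPM in HFD replicate 14. Ctsb had 908 CPM in DDC 0D replicate 6 and 976 CPM in DDC+EtOH replicate 41. Ctsh had 259.7 CPM in DDC+HFD replicate 37 and 253 CPM in DDC+EtOH replicate 43. Ctsa had 145 CPM in DDC+Cont replicate 29, and Ctsc had 246 CPM in DDC+Cont replicate 26.

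The DDC difference was smaller after the second treatment with BD than before it for 6 cathepsins, by a test of the difference itself with edgeR's quasi-likelihood test. In log2 units the change was -1.78 for Ctss, -1.76 for Ctsk, -0.90 for Ctsd, -0.68 for Ctsz, -0.66 for Ctsb and -0.37 for Ctsa.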

How the results depend on the processing

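Of 150 results (10 cathepsins in 12 comparisons and 3 interactions), 46 were called, and 35 of these kept direction and call under every alternative run. A call was lost under at least 1 alternative for 11, and won for 9 of the 104 not called, 2 of them (Ctse) with a turn of sign. The count of cathepsins called in DDC+HFD against DDC+Cont was 1, but 0 with no low-count filter, 0 with only the groups compared and 2 without the pancreas-bearing libraries. In DDC+EtOH against EtOH it was 2, and 0 with only the groups compared. In Control 28D against Control 0D it was 1, and 0 with no low-count filter or with lane as a term. For the DDC by ethanol interaction it was 0, and 1 by DESeq2. With each library left out in turn, counts ran from 6 to 7 in DDC 0D against Control 0D, 4 to 6 in EtOH against HFD, 3 to 5 in DDC+EtOH against DDC+HFD, 5 to 7 in DDC+EtOH against DDC+Cont, 2 to 3 in DDC+HFD against HFD, 0 to 2 in DDC+EtOH against EtOH, and 0 to 1 in DDC+HFD against DDC+Cont and in Control 28D against Control 0D. They stayed at 7 in DDC+Cont against DDC 0D, 4 in EtOH against Control 28D, 6 for the DDC by stage interaction and 0 in the remaining 4. Ctse turned sign in 2 comparisons. In EtOH against HFD its log2 fold change was 2.02 without the pancreas-bearing libraries and ran from -1.19 (without EtOH replicate 23) to 2.03 (without HFD replicate 14). In DDC+HFD against HFD it was 1.88 without the pancreas-bearing libraries and ran from -1.31 (without HFD replicate 15) to 1.78 (without HFD replicate 14). Which of the features of that library brought this about was not tested. At under 3 CPM in all but 1 library, Ctse is limited by depth. No paired analysis was possible because the groups share no replicate numbers.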
